A study of Mus musculus with 6 samples.

Results

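The genes described here are 10 listed genes of eicosanoid synthesis and prostaglandin reception, Ptgs1, Ptgs2, Ptges, Ptges2, Ptges3, Hpgds, Tbxas1, Alox5ap, Ptger2 and Ptger4. They were found by symbol among the 24411 features of the count tables, all 10 had a feature, all are annotated as protein-coding, and the rule uses no measured value. The list itself was chosen with earlier results of these data known. Primary microglial cells (PM) were compared in 2 groups of 3 RNA-seq libraries each, all from cells that received GSK-J4 at 10 μM, an inhibitor of the H3K27 demethylases of the JMJD3 family. The GSK-J4 group had GSK-J4 alone and the LPS + GSK-J4 group also had LPS, the ligand of TLR4, at 10 ng/ml, both at 4-h. The PM were shaken off mixed glial cultures made from pooled brains of neonatal ICR mice, from which the meninges had been removed. The methods call the replicates independent RNA samples and do not say that each came from its own pool of brains, so the p values measure the spread between these samples. The untreated and LPS-only PM and the BV-2 cells of the study were not analysed here, so every difference below is one between cells with and without LPS, all in the presence of GSK-J4.

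Eicosanoids are lipid mediators made from arachidonate, which phospholipases release from membranes. The cyclooxygenases Ptgs1, present in many resting cells, and Ptgs2, inducible by inflammatory signals, turn arachidonate into prostaglandin H2. Terminal synthases then make prostaglandin E2 (Ptges, with Ptges2 and Ptges3 as further PGE2 synthases), prostaglandin D2 (Hpgds) or thromboxane A2 (Tbxas1), and PGE2 acts on cells through the cAMP-coupled receptors Ptger2 and Ptger4. The other branch makes leukotrienes, for which Alox5ap presents arachidonate to the lipoxygenase Alox5.

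The libraries held 2597505 to 3472716 fragments assigned to genes. The ribosomal RNA precursor Rn45s and the features Mir6236 and Lars2, treated as ribosomal, took 29.6 to 42.3% of them in GSK-J4 and 53.7 to 54.9% in LPS + GSK-J4, which left fewer counts for the genes described here in the latter. Levels are given as CPM, counts scaled to a common library size with TMM factors, and 3 counts in a library, used as a lower limit for counting error, corresponded to 0.673 to 1.24 CPM. The 13 listed microglia markers were all measured and summed to 4065 to 4246 CPM in GSK-J4 and 3180 to 3368 CPM in LPS + GSK-J4. At an adjusted p up to 0.05, 6 of these markers were lower in LPS + GSK-J4, beside 9.91% of all tested genes, and 0 were higher. Over all 13 markers, passing or not, the log2-fold changes ran from -0.95 to -0.18. Markers of astrocytes summed to 62.5 to 66.0 CPM in GSK-J4 and 151 to 181 CPM in LPS + GSK-J4, and those of the oligodendrocyte lineage to 216 to 249.7 and 394 to 448 CPM. Neuronal markers were at 21.0 to 26.0 and 54.1 to 63.6 CPM. Nearly all of this came from Tubb3, Map2, Stmn2 and Gad1, while Snap25, Syt1, Rbfox3 and Slc17a7 had 0 to 5 fragments per library. Endothelial markers were at 16.6 to 23.1 and 29.3 to 64.0 CPM, with Cldn5, Tek and Emcn under 3 counts in every library. Markers of border macrophages summed to 264 to 342 CPM in GSK-J4 and 158 to 187 CPM in LPS + GSK-J4, with Cd163 under 3 counts in every library. F13a1 (means of 242 and 127 CPM) and Mrc1 (56.1 and 38.0 CPM) made up most of these sums. Pf4 was not lower (5.29 and 7.01 CPM, groups overlapping), and Lyve1 and Cbr2 had 0 to 9 fragments per library. Markers of mast cells and granulocytes summed to at most 8.98 CPM. In bulk RNA, fewer cells of a type and less RNA per cell cannot be told apart.

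The start regions of the up-regulated member Ptgs2, of Ptges, which had the largest estimated change, and of Hpgds, which had the largest decrease, are shown first, as the 250 bases before the annotated start of transcription in RefSeq (build GRCm38.p6). The RefSeq promoters used here held 9 of the 10 members and not Alox5ap. The RefSeq starts of Ptges and Hpgds lie within the spans that GENCODE gives these genes, so the window of Ptges and most of that of Hpgds, with its motif match, are inside the GENCODE gene. Capitals mark matches to the C/EBP motif TTGCNNAA on either strand.

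Ptgs2 (chr1:150099781-150100030, plus strand): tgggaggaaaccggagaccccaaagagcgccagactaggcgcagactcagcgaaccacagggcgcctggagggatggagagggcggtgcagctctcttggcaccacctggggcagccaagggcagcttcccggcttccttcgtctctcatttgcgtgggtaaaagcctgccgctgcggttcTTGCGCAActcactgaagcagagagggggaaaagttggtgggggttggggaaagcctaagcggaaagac
Ptges (chr2:30903298-30903547, minus strand): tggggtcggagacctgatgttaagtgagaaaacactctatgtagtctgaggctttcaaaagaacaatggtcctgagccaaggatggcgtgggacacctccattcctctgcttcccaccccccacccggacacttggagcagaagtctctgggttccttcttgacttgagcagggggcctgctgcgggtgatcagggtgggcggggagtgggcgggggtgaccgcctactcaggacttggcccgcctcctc
Hpgds (chr6:65144731-65144980, minus strand): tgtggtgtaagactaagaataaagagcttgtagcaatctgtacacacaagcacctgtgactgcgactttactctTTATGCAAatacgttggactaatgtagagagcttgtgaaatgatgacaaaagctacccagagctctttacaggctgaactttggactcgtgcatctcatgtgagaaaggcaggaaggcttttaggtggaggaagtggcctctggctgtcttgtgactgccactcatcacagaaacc

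The C/EBP motif began 69 bases before the start of Ptgs2 and 176 bases before that of Hpgds, and it was not in the window of Ptges. Of all 32851 start regions of this length, 9.56% held it. The NF-κB consensus, the CRE core TGACG and the TATA box TATAAA were searched on both strands as well and had no match in these 3 windows, against 3.90, 17.8 and 12.4% of all start regions. Bases after the annotated start were not searched, so a motif with no match here can still lie just past the window. These matches are a description of the letters only.

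The quasi-likelihood test of edgeR was run on the 10133 genes with enough counts, which included every member but Ptger2. A gene was called where its adjusted p was 0.01 or less and its log2-fold change 1.5 or more in either direction, cutoffs taken from the study. Ptgs2 was up-regulated in LPS + GSK-J4, and of the 9 tested members it was the only one called, beside 2.95% of all tested genes called higher. None of the members was called lower, against 0.809% of all tested genes (edgeR; 3 of the tested members were lower at an unadjusted p under 0.05, and DESeq2 called none lower). At an adjusted p of at most 0.05 with any fold change, 3 members were higher (Ptgs2, Ptges and Ptger4), beside 13.7% of all tested genes, and 2 were lower (Ptgs1 and Hpgds), beside 9.91%. The libraries of the groups did not overlap for 7 of the 9 tested members, against 38.2% of all tested genes. Over the tested members the log2-fold changes had a median of 0.26, and over all tested genes one of -0.00064.

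**Figure D1:**
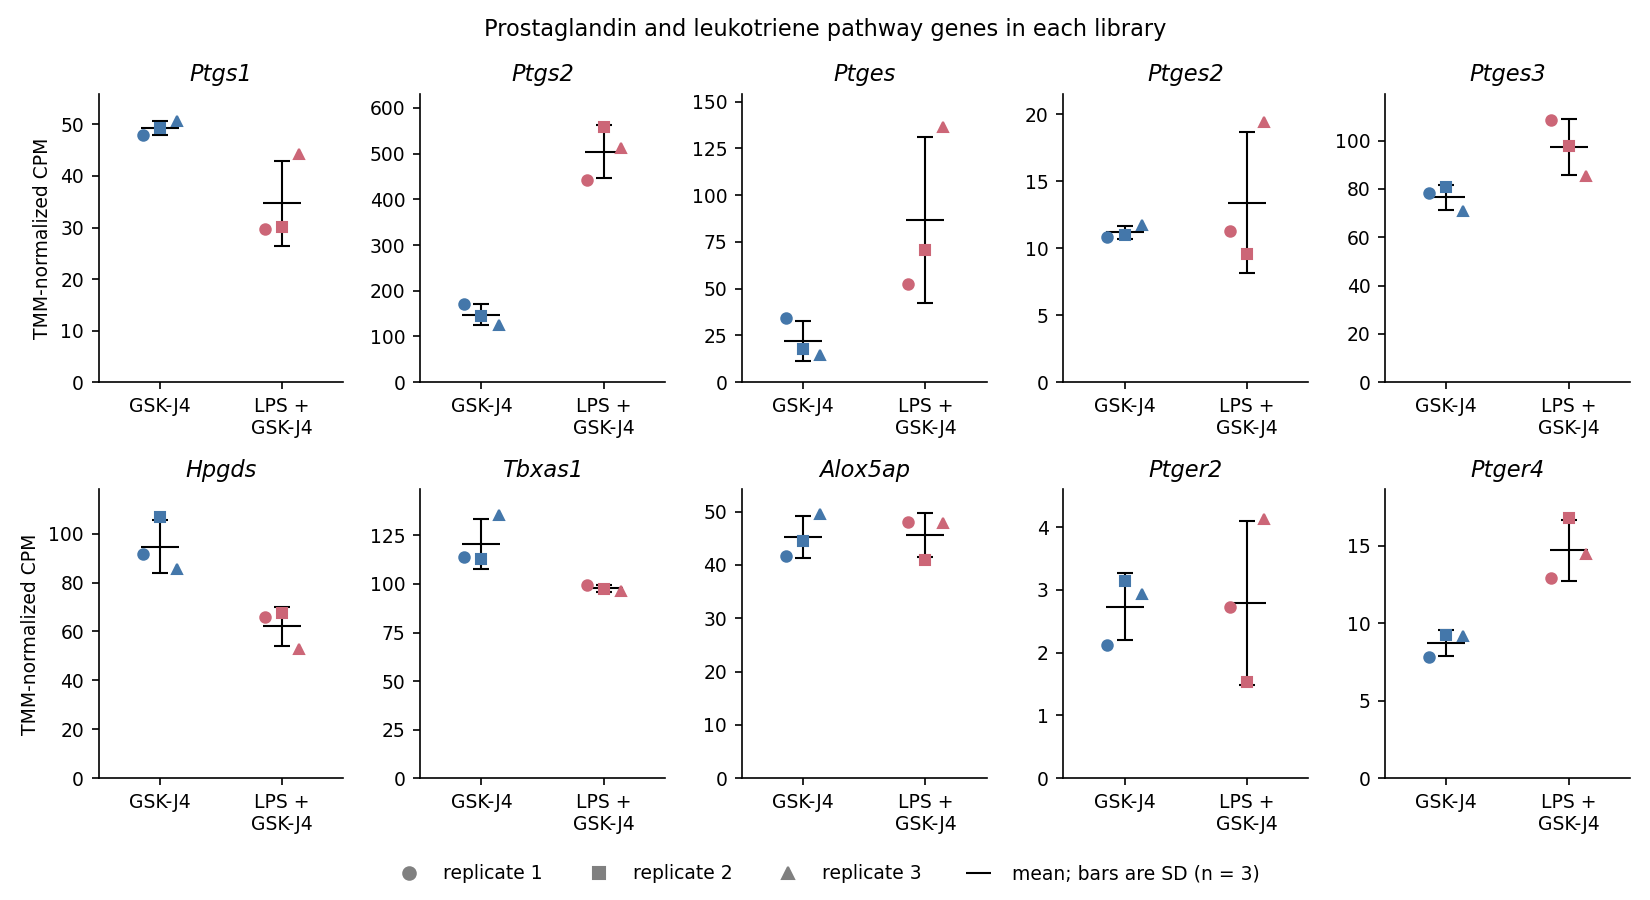
TMM-normalized CPM (vertical axes, each from 0 and with its own range) of the 10 members in the 3 GSK-J4 and the 3 LPS + GSK-J4 libraries. Points are libraries, with shapes for the replicate numbers, and the bars are the mean and SD. The Ptgs2 libraries lie at 125 to 171 CPM and at 442 to 558 CPM, while those of Alox5ap, Ptges2 and Ptger2 overlap.

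Of the cyclooxygenases, Ptgs2 (GRCm38 chromosome 1, 150100031 to 150108227) had the larger change. It was at 171, 145 and 125 CPM in GSK-J4 replicates 1, 2 and 3 and at 442, 558 and 512 CPM in LPS + GSK-J4 replicates 1, 2 and 3. Every LPS + GSK-J4 library was thus well above every GSK-J4 library, and the gap between the groups was wider than the range within either. The means were 147 ± 23.0 and 504 ± 58.5 CPM (SD, n = 3), or 3.42-fold more with LPS (95% interval 2.80 to 4.17). On the log2 scale this was 1.77 with a standard error of 0.13 (adjusted p = 8.46e-08). The lower bound on the log2 scale was 1.49, so the interval reached just below the threshold of 1.5, although the call was kept in all 14 alternatives. Ptgs2 ranked 187 of 10133 tested genes by log2-fold change. Counts as deposited were 726, 645 and 342 fragments in GSK-J4 and 1133, 1463 and 1241 in LPS + GSK-J4.

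Ptgs1 (chromosome 2, 36230426 to 36252272), the cyclooxygenase of resting cells, went the other way. It was at 47.9, 49.4 and 50.6 CPM in GSK-J4 and at 29.7, 30.1 and 44.2 CPM in LPS + GSK-J4. The GSK-J4 libraries were nearly alike, and LPS + GSK-J4 replicate 3 stood between them and the other two LPS + GSK-J4 libraries. The log2-fold change was -0.51 (95% interval -0.87 to -0.15, adjusted p = 0.0406). This p was above 0.05 in DESeq2 (0.0541) and whenever a single library other than LPS + GSK-J4 replicate 3 was left out (0.0783 to 0.176). Without that replicate the log2-fold change was -0.72 (adjusted p = 0.00124).

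The balance of the cyclooxygenases was read within each library, per kb of exon. Ptgs2 was 3.03, 2.49 and 2.10 times the level of Ptgs1 in GSK-J4 and 12.6, 15.7 and 9.84 times in LPS + GSK-J4. Ptgs2 was therefore the more abundant cyclooxygenase transcript in all 6 libraries, also without LPS. The mean log2 ratio was 1.33 ± 0.26 in the GSK-J4 group and 3.64 ± 0.34 with LPS added (SD, n = 3), a difference of 2.32 that was the same in direction for every pair of libraries across the groups. The 2-sided exact permutation p was 0.1, below which 3 libraries a group cannot go.

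Among the PGE2 synthases the inducible enzyme Ptges (chromosome 2, 30889471 to 30929863), the partner of Ptgs2 in inflammation, had the largest estimate of the 9 tested members and the widest error among them. It was at 34.4, 17.7 and 14.3 CPM in GSK-J4 and at 52.7, 70.6 and 137 CPM in LPS + GSK-J4. The groups did not overlap, but the libraries of each group spread by more than 2-fold. The log2-fold change was 1.93 (standard error 0.47, 95% interval 0.80 to 3.06), with adjusted p = 0.0283, which missed the threshold of 0.01, and Ptges was not called. Without GSK-J4 replicate 1, its highest GSK-J4 library, Ptges was called (log2-fold change 2.41, adjusted p = 0.000182), and it was called in DESeq2 (1.91, adjusted p = 0.00532). Settings that took its adjusted p above 0.05 included leaving out GSK-J4 replicate 2 or 3 (0.102 and 0.0765) and using no filter on low counts (0.128). The log2-fold change was 1.44 (adjusted p = 0.0248) without LPS + GSK-J4 replicate 3 and 1.26 (adjusted p = 0.0462) without both libraries numbered 3.

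Within each group, the library with the highest Ptges level was also the one with the most transcripts of the listed fibroblast and meninges markers. These 7 genes summed to 309, 108 and 128 CPM in GSK-J4 replicates 1, 2 and 3 and to 202, 342 and 555 CPM in LPS + GSK-J4 replicates 1, 2 and 3. LPS + GSK-J4 replicate 3 was highest and replicate 1 lowest of its group for both the marker sum and Ptges, and GSK-J4 replicate 1 was the highest of the GSK-J4 group for both. GSK-J4 replicates 2 and 3 were in opposite orders, with Ptges at 17.7 and 14.3 CPM and marker sums of 108 and 128 CPM. Of the 7 markers, 1 (Igfbp2, which astrocytes express too) was higher in LPS + GSK-J4 (adjusted p = 1.62e-05), and the groups overlapped for the other 6. Ptgis, the prostacyclin synthase, was at 6.61, 2.02 and 2.57 CPM and at 7.42, 10.3 and 17.8 CPM in the same libraries, with the same highest library in each group. GSK-J4 replicate 1 had a higher marker sum than LPS + GSK-J4 replicate 1, while its Ptges level was lower. The part of these markers in the Ptges result was not tested.

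**Figure D2:**
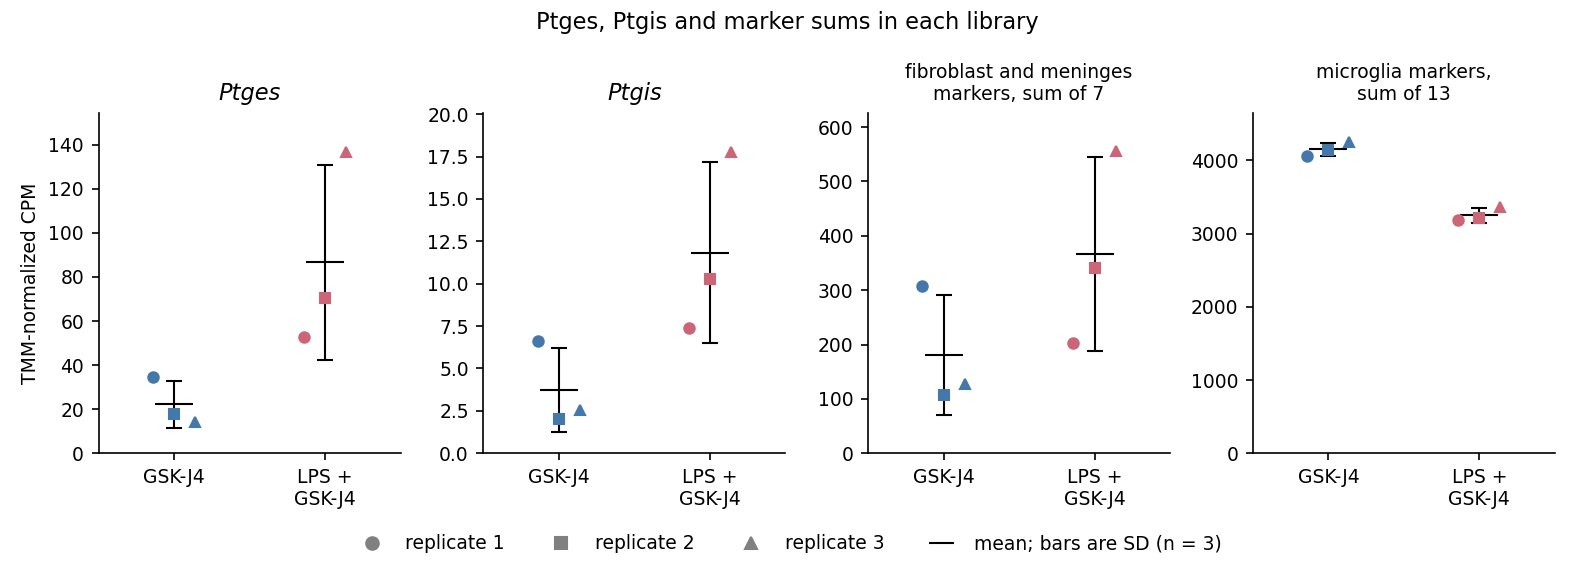
TMM-normalized CPM (vertical axes from 0) of Ptges, Ptgis, the sum of the 7 fibroblast and meninges markers and the sum of the 13 microglia markers in each library, with mean and SD. LPS + GSK-J4 replicate 3 is the highest library in the first 3 panels (137, 17.8 and 555 CPM), and the microglia sum lies at 4065 to 4246 CPM in GSK-J4 and 3180 to 3368 CPM in LPS + GSK-J4.

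The other PGE2 synthases did not pass the test. Ptges2 (chromosome 2, 32395896 to 32405772), a membrane-associated enzyme, was at 10.9 to 11.7 CPM in GSK-J4 and at 11.3, 9.54 and 19.4 CPM in LPS + GSK-J4. The groups overlapped, the log2-fold change was 0.26 (95% interval -0.31 to 0.83, adjusted p = 0.538), and without LPS + GSK-J4 replicate 3 it was -0.10. Ptges3 (chromosome 10, 128058954 to 128077272), the cytosolic PGE2 synthase that is also the Hsp90 co-chaperone p23, was at 78.3, 80.6 and 70.8 CPM in GSK-J4 and at 108, 97.7 and 85.5 CPM in LPS + GSK-J4. All 3 LPS + GSK-J4 libraries were above the GSK-J4 libraries, by little in replicate 3, and the log2-fold change of 0.34 (95% interval 0.06 to 0.62) had adjusted p = 0.0756. Without LPS + GSK-J4 replicate 3 it was 0.42 (adjusted p = 0.0157). Ptges3 has a pseudogene, Ptges3-ps, in the annotation, and fragments that match more than 1 place are not in the counts.

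Per kb of exon, Ptges was 4.08, 2.07 and 1.57 times the level of Ptges2 in GSK-J4 and 5.99, 9.52 and 9.06 times in LPS + GSK-J4. The ratio was higher in every LPS + GSK-J4 library (difference of the mean log2 ratios 1.76, 2-sided exact permutation p = 0.1, the smallest possible).

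Of the members that make other prostanoids, Hpgds was lower and Tbxas1 did not pass the test. Hpgds (chromosome 6, 65117293 to 65144908), the hematopoietic PGD2 synthase, was at 91.8, 107 and 85.4 CPM in GSK-J4 and at 66.0, 67.5 and 52.9 CPM in LPS + GSK-J4. The groups were apart, and the log2-fold change was -0.61 (standard error 0.14, 95% interval -0.91 to -0.30, adjusted p = 0.00551), or 0.656 times the GSK-J4 level. This passed the threshold for the adjusted p and not that for the fold change. Tbxas1 (chromosome 6, 38875404 to 39084585), the thromboxane synthase, was at 114, 113 and 136 CPM in GSK-J4 and at 99.5, 97.3 and 96.2 CPM in LPS + GSK-J4. All 3 LPS + GSK-J4 libraries were below those of GSK-J4, with a log2-fold change of -0.30 (95% interval -0.57 to -0.04, adjusted p = 0.0968). The log2-fold changes of Hpgds, Ptgs1 and Tbxas1 lay within the range of those of the 13 microglia markers (-0.95 to -0.18, median -0.36). The low end of that range was Tmem119 alone, with 4 to 31 fragments per library (edgeR, adjusted p = 0.131). P2ry12 was the next lowest marker at -0.52, so Hpgds was lower than every marker but Tmem119. The part of the lower microglia markers in the results of Hpgds, Ptgs1 and Tbxas1 was not tested.

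Alox5ap (chromosome 5, 149264767 to 149288153), the member of the leukotriene branch, was at 41.8, 44.4 and 49.5 CPM in GSK-J4 and at 48.0, 40.8 and 47.9 CPM in LPS + GSK-J4. The libraries of the groups were interleaved. The log2-fold change was 0.02 (adjusted p = 0.956), and its 95% interval, from -0.30 to 0.33, reaches from 0.811 to 1.26 times the GSK-J4 level.

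**Figure D3:**
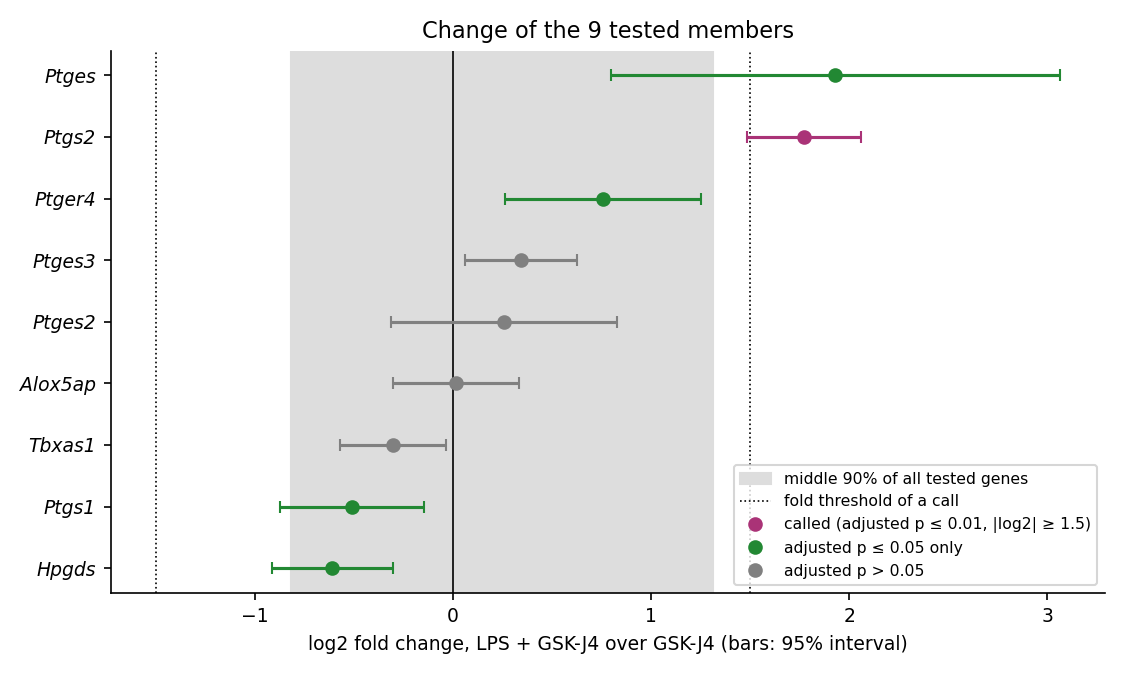
Log2-fold change of LPS + GSK-J4 over GSK-J4 (horizontal axis) with its 95% interval for the 9 tested members. Grey shading spans the middle 90% of all tested genes, dotted lines mark 1.5 in either direction, and colours mark the calls. Ptgs2 (1.77) and Ptges (1.93) lie outside the shading, and the other 7 members, from -0.61 to 0.76, lie inside it.

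Of the PGE2 receptors, Ptger4 (chromosome 15, 5206661 to 5244187) was at 7.79, 9.20 and 9.17 CPM in GSK-J4 and at 12.9, 16.8 and 14.5 CPM in LPS + GSK-J4. The groups did not overlap, and the log2-fold change of 0.76 (standard error 0.23, 95% interval 0.26 to 1.25, adjusted p = 0.0268) stayed below the threshold for a call. These levels rest on 25 to 44 fragments per library. The adjusted p was above 0.05 in DESeq2 (0.154), without the filter on low counts (0.0522) and without GSK-J4 replicate 1 (0.110), GSK-J4 replicate 2 (0.0721) or LPS + GSK-J4 replicate 2 (0.120). Ptger4 overlaps exons of Ttc33 on the other strand by 82 bp, and the strand-specific counts used here keep them apart. Ptger2 (chromosome 14, 44988195 to 45003820) had 9, 14 and 8 fragments in GSK-J4 and 7, 4 and 10 in LPS + GSK-J4, or 2.12 to 3.14 and 1.53 to 4.13 CPM. The groups overlapped, and these counts were too low for the main test. In a fit of all genes with any counts its log2-fold change was -0.03 with a standard error of 0.50 (adjusted p = 0.976), so a change of moderate size was not detectable at this depth. Per kb of exon, Ptger4 was the more abundant of the pair in all 6 libraries, by 2.29 to 2.86 times in GSK-J4 and 2.73 to 8.59 times in LPS + GSK-J4, and these ranges overlapped (2-sided exact permutation p = 0.2, where 0.1 is the smallest possible). The difference of the mean log2 ratios was 0.81, and 0.33 without LPS + GSK-J4 replicate 2, in which Ptger2 had 4 fragments.

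Levels can be compared between genes only per kb of exon. In GSK-J4, Ptges3 (34.5 ± 2.32 CPM per kb, SD, n = 3), Ptgs2 (32.1 ± 5.03) and Alox5ap (31.9 ± 2.77) were highest and did not differ beyond their spread. Hpgds (14.7 ± 1.69), Tbxas1 (13.3 ± 1.42) and Ptgs1 (12.7 ± 0.349) followed, again within their spread, and Ptges was at 5.64 ± 2.74. The lowest were Ptges2 (2.21 ± 0.0932), Ptger4 (1.31 ± 0.122) and Ptger2 (0.526 ± 0.104). In LPS + GSK-J4, Ptgs2 stood alone at the top with 110 ± 12.8 CPM per kb, followed by Ptges3 (43.9 ± 5.19) and Alox5ap (32.1 ± 2.90). Ptges, at 22.0 ± 11.3, was above Tbxas1 (10.7 ± 0.185), Hpgds (9.67 ± 1.25) and Ptgs1 (8.92 ± 2.12), each of which it had been below in GSK-J4, and these last 3 lay within their spread. Ptges2 (2.65 ± 1.04), Ptger4 (2.21 ± 0.296) and Ptger2 (0.538 ± 0.251) were again lowest. Exon lengths are those of all annotated transcripts of a gene merged, so the level of a gene with long unused exons is understated.

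**Figure D4:**
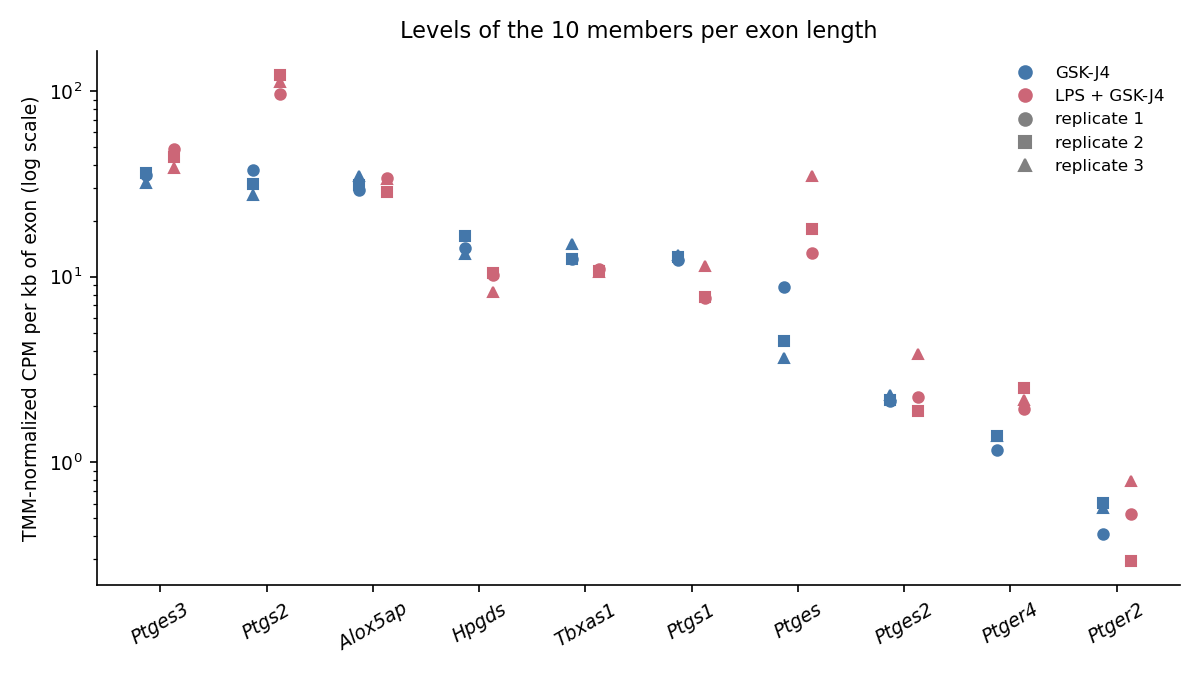
TMM-normalized CPM per kb of merged exon (vertical axis, log scale) of the 10 members in each library, ordered by the mean in GSK-J4. Points are libraries, with colours for groups and shapes for replicate numbers. Ptgs2 moves from 32.1 to 110 CPM per kb on average and Ptges from 5.64 to 22.0, while Ptger2 stays near 0.5 CPM per kb.

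A further 78 genes of the pathway were listed by role, of which 39 had enough counts to be tested. By the thresholds of a call 1 was up-regulated and 1 down-regulated, and 4 were higher and 5 lower where only an adjusted p up to 0.05 was asked for. Their median log2-fold change was -0.01. The shares of all tested genes given above apply here too.

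Among the 22 genes of arachidonate release, 11 were tested. Pla2g4a, the cytosolic phospholipase that releases arachidonate upon activation, was at 15.8 to 20.7 CPM in GSK-J4 and 14.9 to 20.6 CPM in LPS + GSK-J4 (log2-fold change -0.04, 95% interval -0.47 to 0.40, adjusted p = 0.923). Pla2g15, the lysosomal phospholipase, was down-regulated. It was at 145, 148 and 155 CPM in GSK-J4 and at 51.5, 47.7 and 48.7 CPM in LPS + GSK-J4, which is -1.60 ± 0.13 on the log2 scale (estimate and standard error, adjusted p = 1.25e-07). Its libraries were tightly grouped and far apart, and it was called in all 14 alternatives. Anxa1, annexin A1, an inhibitor of phospholipase action, was higher (78.6, 80.4 and 68.6 against 174, 176 and 145 CPM, log2-fold change 1.12, adjusted p = 1.10e-05), below the threshold for the fold change. Mgll, which frees arachidonate from an endocannabinoid, was higher (0.63, adjusted p = 0.0300), while Daglb (-0.56, adjusted p = 0.0150), which makes that endocannabinoid, and Pla2g7 (-0.73, adjusted p = 0.000661), the platelet-activating factor acetylhydrolase, were lower. The secreted enzymes Pla2g2a and Pla2g10 had no counts in any library.

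In the list of other prostanoid synthesis, breakdown and transport, 11 of 13 genes were tested. Slco2a1, the transporter that carries prostaglandins into cells, was up-regulated. It was at 3.77, 3.82 and 3.67 CPM in GSK-J4 and at 8.98, 12.6 and 16.9 CPM in LPS + GSK-J4 (log2-fold change 1.76, standard error 0.31, adjusted p = 0.000532). Its counts were low, 10 to 17 fragments in GSK-J4, and every LPS + GSK-J4 library was above them. Of the 7 endothelial markers, 1 was higher in LPS + GSK-J4 at an adjusted p up to 0.05, Cdh5. It was at 15.3, 9.88 and 11.7 CPM in GSK-J4 and at 17.2, 34.0 and 54.5 CPM in LPS + GSK-J4. Its LPS + GSK-J4 libraries were in the same order as for Slco2a1, and its GSK-J4 libraries were not. Some other marker sums had that LPS + GSK-J4 order too, among them fibroblast and meninges (202, 342 and 555 CPM) and astrocyte (151, 169 and 181 CPM). Cdh5 made up most of the endothelial marker sum in the LPS + GSK-J4 libraries. The groups did not overlap for Flt1 either, which was at 4.95, 2.69 and 6.23 CPM in GSK-J4 and at 7.03, 6.49 and 7.02 CPM in LPS + GSK-J4. Its log2-fold change was 0.61 (edgeR, adjusted p = 0.223). Pecam1 (means of 1.01 and 0.790 CPM) and Kdr (2.47 and 2.61 CPM) overlapped between the groups, and Cldn5 and Emcn had no counts. The part of these markers in the Slco2a1 result was not tested. Ptgis had a log2-fold change of 1.61 and just missed the threshold for a call (adjusted p = 0.0105). It was called without GSK-J4 replicate 1 (2.36, adjusted p = 0.00110) and without LPS + GSK-J4 replicate 1 (1.85, adjusted p = 0.00402), and its adjusted p was 0.0503 without GSK-J4 replicate 2. The log2-fold change of Ptgis was 1.20 (adjusted p = 0.0338) without LPS + GSK-J4 replicate 3 and 1.06 (adjusted p = 0.0759) without both libraries numbered 3. Hpgd, which inactivates prostaglandins, was at 5.66 to 9.53 and 4.13 to 7.42 CPM (adjusted p = 0.438). Ptgds, the PGD2 synthase of glia and meninges, spread from 4.68 to 33.3 CPM over the 6 libraries without order between the groups (adjusted p = 0.872).

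None of the 8 other receptor genes, among them the nuclear receptor Pparg with 3 to 10 fragments per library, had enough counts to be tested. The prostacyclin receptor Ptgir had 8, 21 and 5 fragments in GSK-J4 and 0, 3 and 4 in LPS + GSK-J4, and Ptgdr2 had none in any library. The thromboxane receptor Tbxa2r had 1 fragment in all libraries together.

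In the leukotriene branch, 8 of 18 further synthesis genes were tested. Alox5, the lipoxygenase that Alox5ap serves, had 8 to 16 fragments per library and 3.12 to 5.72 CPM (log2-fold change 0.32, adjusted p = 0.575), far below Alox5ap per kb of exon (0.936 against 31.9 CPM per kb in GSK-J4). Lta4h, which makes leukotriene B4, was at 44.4 to 51.7 and 31.7 to 39.8 CPM (-0.43, adjusted p = 0.0591), and Ltc4s, which starts the cysteinyl leukotrienes, at 4.48 to 8.07 and 4.68 to 7.02 CPM (-0.22, adjusted p = 0.685). Mgst1, a microsomal glutathione transferase related to Alox5ap, was lower (113, 128 and 99.0 against 67.9, 71.0 and 59.9 CPM, log2-fold change -0.78, adjusted p = 0.000616). Of the 8 leukotriene and related receptors, 3 were tested. The cysteinyl leukotriene receptor Cysltr1 was lower (19.3, 17.7 and 14.7 against 12.9, 8.39 and 7.02 CPM, log2-fold change -0.88, adjusted p = 0.0184), and the leukotriene B4 receptors Ltb4r1 and Ltb4r2 had 0 to 2 fragments per library. None of the 6 tested epoxygenase and epoxide hydrolase genes passed an adjusted p of 0.05, with log2-fold changes from -0.46 to 0.56.

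**Figure D5:**
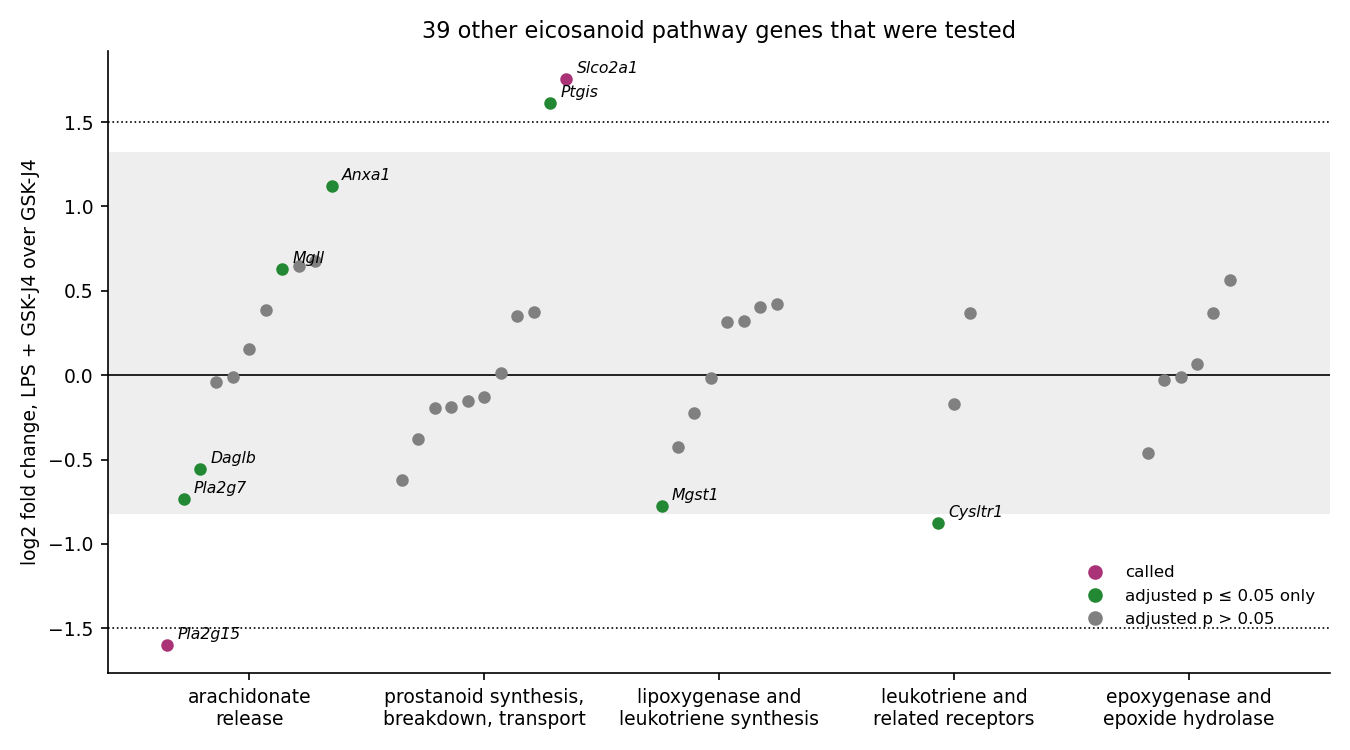
Log2-fold change of LPS + GSK-J4 over GSK-J4 (vertical axis) of the 39 tested genes of the other pathway lists, by list (horizontal axis). Each point is a gene, genes with an adjusted p of at most 0.05 are named, the shading spans the middle 90% of all tested genes and dotted lines mark 1.5 in either direction. Slco2a1 (1.76) and Pla2g15 (-1.60) lie beyond the dotted lines with a call.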

How the data were processed

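RNA-seq libraries of PM treated with GSK-J4 (3) or LPS + GSK-J4 (3) were analysed. Reads were trimmed with Trimmomatic and mapped on mm10 with STAR by the authors, who deposited STAR's gene counts without scaling (CASAVA 1.8.2, Trimmomatic 0.33 and STAR 2.5.1 in the submitters' processing notes). The annotation used for counting is not given in the sources used here. Multi-mapping fragments are left out by STAR, which lowers the counts of genes that have close copies. The reverse-strand column was used, since it held nearly all fragments on genes. Other-strand fragments made up 0.285 to 5.45% of those of each member, the highest share being that of Ptger2. Between 2597505 and 3472716 fragments per library limit the precision of low genes, and the level of 3 counts covers counting error only.

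Counts were tested in R 4.3.3 with edgeR 4.0.16 (TMM factors, filterByExpr at min.count 10 and min.total.count 15, glmQLFit with the robust option and glmQLFTest between the groups, no covariates), with Benjamini-Hochberg adjusted p over the 10133 tested genes. Standard errors are the unshrunken log2-fold change divided by the root of the F value, and 95% intervals use the fit's degrees of freedom. Positions and exon lengths are from GENCODE vM21 (GRCm38), in which 23376 of 24411 symbols matched. Figures were made in Python 3.11.15 with matplotlib 3.10.9.

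Named genes were the 10 members, the pathway genes that were called or had an adjusted p up to 0.05, and 8 genes that show where a member acts. Anything else, such as Pla2g2a, Pla2g10, Pparg, Ptgdr2, Tbxa2r, Ltb4r1, Ltb4r2, Igfbp2, Cdh5, Flt1, Pecam1 and Kdr, was named after its values were seen. The members and lists were chosen with earlier results of these data known. Alternatives were DESeq2 1.42.0 and its size factors, other filters, unstranded counts, removal of ribosomal features, the replicate number as a block, looser thresholds and leaving out each library. Leaving out both libraries numbered 3 was added after the data were seen.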

Additional observations from a re-analysis of the deposited data

How the results depend on the processing

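The log2-fold change of Ptgs2 was between 1.67 and 1.89 in all alternatives and passed the call each time, and that of Hpgds was between -0.67 and -0.51 with an adjusted p of at most 0.0456. The number of members called higher was 1, and 2 in DESeq2, with the looser thresholds and without GSK-J4 replicate 1, the second gene being Ptges (leaving out single libraries gave 1 to 2). Members higher at an adjusted p of at most 0.05 numbered 3, against 1 without the filter on low counts, and 1 to 4 when libraries were left out (1 without GSK-J4 replicate 2). Members lower numbered 2, against 1 in DESeq2 and 1 to 2 when libraries were left out. Other pathway genes called higher numbered 1, against 2 without the filter or with unstranded counts, the added gene being Ptgis, 3 with the looser thresholds, and 1 to 2 when libraries were left out. The sign changed for values near 0, for Ptges2 without LPS + GSK-J4 replicate 3 (-0.10) or both libraries numbered 3 (-0.06), and for Alox5ap in DESeq2 (-0.0324), without the filter (-0.0382) and without GSK-J4 replicate 1 or 2 or LPS + GSK-J4 replicate 1 or 3. With single libraries left out, Ptges2 ranged from -0.10 to 0.46 and Alox5ap from -0.0446 to 0.0901. With at least 10 counts required in every library, 176 of all genes were called higher and 56 lower, against 299 and 82, with fewer genes tested. The other causes were not tested. The labels give both groups the numbers 1 to 3. Deviations from the group means correlated over genes with r = -0.01, 0.12 and 0.30 between libraries of the same number. Between different numbers r was from -0.29 to 0.24, and it was negative wherever a library numbered 3 met one numbered 1 or 2. In both groups library 3 also stood apart. Its chi-square per degree of freedom against libraries 1 and 2 was 13.4 and 13.8 in GSK-J4 and 6.27 and 6.36 in LPS + GSK-J4. Between libraries 1 and 2 it was 2.21 and 2.44. The numbers were not taken to pair the samples in the main test, and what sets the libraries numbered 3 apart was not tested. With the replicate block, 2 other pathway genes were called higher and the adjusted p of Ptges was 0.215. Those of Ptges3 (0.0117) and Tbxas1 (0.0258) were then under 0.05, and that of Ptgs1 was 0.0030. Counts of 25 to 44 fragments for Ptger4 and 4 to 14 for Ptger2 limit what can be seen of the receptors.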
